A study of Mus musculus with 1 sample.

Results

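The lymphocyte homing and egress genes are 9 genes that set where a blood lymphocyte can travel: Ccr7, S1pr1, Klf2, Cxcr3, Cx3cr1, Ccr2, Cxcr4, Cxcr6 and Ccr9. They were chosen by name, with earlier results of these data known, from the 32285 genes of the count matrix. All 9 were found in it. Their levels were read in 1 library of blood T lymphocytes from 1 mouse. Each UMI stands for 1 RNA molecule caught in a droplet and each barcode for 1 droplet. Barcodes were kept with at least 1331 UMIs, which left 1600 of 300213. The barcodes were grouped by the transcripts they held: Cd4 without Cd8a or Cd8b1 (CD4-only, 369 barcodes), Cd8a or Cd8b1 without Cd4 (CD8-only, 719), Foxp3 (40), at least 1 of Gzmk, Gzma and Gzmb (granzyme, 146) and Cd79a (106). At least 1 of these groups took in 1219 barcodes, and 381 fell in none.

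The mouse carried the autochthonous SCLC model, in which Adeno-Cre given into the trachea deletes conditional alleles of Rb1 and Trp53 on a C57BL/6 background. It received the vehicle, PBS, every 3 days, so the host had SCLC and no ERBB2 or PD-1 inhibitor. From 150 µl of blood, red cells were lysed and T lymphocytes were kept by negative selection. The individual's age is not given in the sources used here, and the library of the combination treatment was not analysed here. With 1 library there were no replicates and no test was run. Intervals in parentheses are exact 95% intervals, Poisson for levels, conditional Poisson for ratios and binomial for shares of barcodes, and they cover counting error only.

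Chemokine receptors and S1pr1 are receptors at the cell surface that couple to inhibitory G proteins and steer cells along gradients of their ligands. Naive and central memory lymphocytes use Ccr7 to enter lymph nodes, and S1pr1, the receptor for sphingosine-1-phosphate, to leave them for the blood; the transcription factor Klf2 promotes S1pr1 expression. Cxcr3, Cx3cr1, Ccr2 and Cxcr6 are known from effector and memory cells that enter inflamed or peripheral tissue, Ccr9 from homing to the small intestine, and Cxcr4 from retention in bone marrow.

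Totals per kept barcode ran from 1334 to 18399 UMIs with a median of 3934.5, and 964 of the 1600 barcodes had a clonotype in the contig table. CD8-only and CD4-only barcodes were the largest groups, but other cells were present. Cd79a barcodes held 61.9 UMIs of 5 B cell markers per 10000 UMIs, against 1.70 in CD4-only and 1.65 in CD8-only barcodes. Cd79a, which defines that group, is among the 5 and raises its sum in part. Of the Cd79a barcodes, 23 also held a Cd3d, Cd3e or Cd3g UMI, and Cd4 met Cd8a or Cd8b1 in 49 barcodes, which entered neither T cell group. A further 107 barcodes had no UMI of Cd3d, Cd3e, Cd3g, Trac, Cd4, Cd8a, Cd8b1, Cd79a or Cd79b, and they serve as a group without a T or B cell gene. Groups overlapped: 108 of the 146 granzyme barcodes were CD8-only and 11 CD4-only, and of the 40 Foxp3 barcodes 15 were CD4-only, 5 CD8-only, and 17 held neither Cd4 nor a CD8 transcript. Ribosomal protein transcripts made up less than 10% of the UMIs in 615 of the 1600 barcodes, and this share moved with several members, as given beside them below.

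The egress and lymph node entry genes Ccr7 and S1pr1 were highest in CD4-only barcodes. Among the lymphocyte groups, Ccr7 but not S1pr1 was lowest where granzyme transcripts were found. Ccr7 was at 8.02 UMIs per 10000 UMIs (7.57 to 8.50) in CD4-only, 5.51 (5.30 to 5.73) in CD8-only, 5.48 (4.82 to 6.22) in Cd79a, 3.23 (2.48 to 4.14) in Foxp3 and 1.23 (1.01 to 1.49) in granzyme barcodes. Only the neighbouring CD8-only and Cd79a levels overlapped in their intervals. Among barcodes without a T or B cell gene the level was 0.508 (0.301 to 0.802), below every lymphocyte group. S1pr1 followed another order, with 4.23 (3.90 to 4.58) in CD4-only, 2.77 (2.08 to 3.62) in Foxp3, 2.17 (2.04 to 2.31) in CD8-only, 1.89 (1.62 to 2.21) in granzyme and 1.78 (1.41 to 2.21) in Cd79a barcodes. All neighbours after CD4-only overlapped. Without barcodes under 10% ribosomal share, Ccr7 was still highest in CD4-only and lowest in granzyme barcodes, at 8.94 and 1.28. S1pr1 was then still highest in CD4-only barcodes, at 3.29 (2.95 to 3.65), but overlapped Foxp3 at 2.65 (1.92 to 3.55). Klf2, the factor above S1pr1, did not track it across groups. It was at 15.6 (14.5 to 16.8) in Cd79a, 14.5 (13.7 to 15.3) in granzyme, 13.6 (13.1 to 14.3) in CD4-only, 12.7 (11.2 to 14.4) in Foxp3 and 10.6 (10.3 to 10.9) in CD8-only barcodes, and only the last step was wider than the intervals. Without low ribosomal barcodes, granzyme and CD4-only barcodes changed places for Klf2, at 14.5 (13.7 to 15.4) and 15.6 (14.9 to 16.4). Levels of different genes are not compared with each other.

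Of the receptors of peripheral tissue entry, Cxcr3, Cx3cr1 and Cxcr6 had their highest levels in granzyme barcodes. Cxcr3, the receptor for the interferon-induced ligands Cxcl9 and Cxcl10, was at 2.16 (1.86 to 2.50) per 10000 in granzyme barcodes. CD8-only, CD4-only and Foxp3 barcodes, at 0.785, 0.738 and 0.718, overlapped with each other, and Cd79a barcodes had 3 Cxcr3 UMIs in all. Cx3cr1, the fractalkine receptor, was at 1.63 (1.37 to 1.92) in granzyme and 0.313 (0.264 to 0.369) in CD8-only barcodes. CD4-only barcodes held 4 Cx3cr1 UMIs in 3 of 369 barcodes (0.813%). In Cd79a barcodes, which are taken as B cells and as a background, the share was 1.89% (0.229% to 6.65%). With so few barcodes the CD4-only share is not told apart from this background. Of the 4 UMIs, 2 were in 1 of the 11 CD4-only granzyme barcodes. Cxcr6, whose ligand is Cxcl16, was at 0.721 (0.553 to 0.924) in granzyme and 0.512 (0.449 to 0.582) in CD8-only barcodes, with overlapping intervals, and at 0.253 (0.178 to 0.349) in CD4-only barcodes.

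Ccr2, the receptor for Ccl2 and Ccl7, was at 2.10 (1.51 to 2.85) in Foxp3 and 1.34 (1.10 to 1.60) in granzyme barcodes. These groups shared 8 barcodes, which held 34 of the 41 Ccr2 UMIs of the Foxp3 group, so their levels are not independent. Foxp3 barcodes without granzyme were at 0.544 (0.219 to 1.12). Ccr2 was at 0.205 (0.166 to 0.251) in CD8-only and 0.137 (0.0835 to 0.211) in CD4-only barcodes. The Foxp3 level rested on few barcodes, since 30 of its 41 Ccr2 UMIs were in 3 of them. Ccr9, the receptor for Ccl25, was at 0.718 (0.393 to 1.21) in Foxp3 and 0.424 (0.366 to 0.487) in CD8-only barcodes. Cd79a, granzyme and CD4-only barcodes, at 0.112, 0.105 and 0.103, overlapped. A Ccr9 UMI was found in 2.98% of CD4-only and 2.83% of Cd79a barcodes, at median totals of 3390 and 3657 UMIs, so that its CD4-only share is not told apart from background. Cxcr4, the receptor for Cxcl12, was highest in Cd79a barcodes, at 1.33 (1.01 to 1.71), above the intervals of the other groups, and the T cell groups, between 0.308 and 0.532, overlapped with their neighbours.

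**Figure D1:**
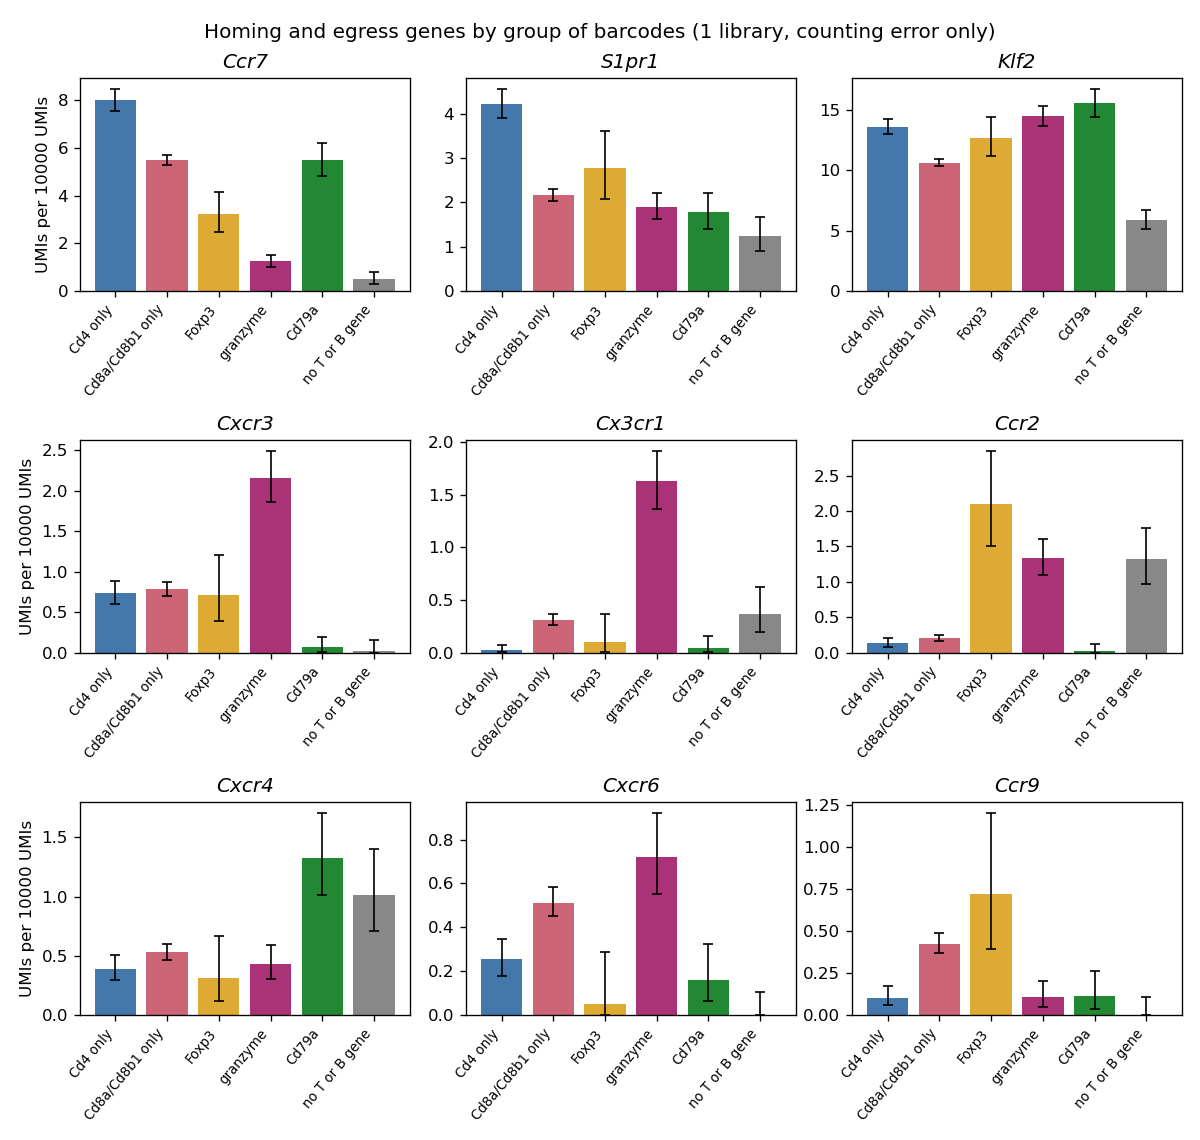
Levels of the 9 genes in the 5 groups and in barcodes without a T or B cell gene, as UMIs per 10000 UMIs pooled over the barcodes of a group; each panel has its own axis, and bars carry exact 95% Poisson intervals. Ccr7 is lowest among the lymphocyte groups in granzyme barcodes at 1.23, where Cxcr3 and Cx3cr1 are highest at 2.16 and 1.63.

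To separate granzyme transcripts from the choice of CD4 or CD8, CD8-only barcodes with a Gzmk, Gzma or Gzmb UMI (108) were set against those without (611), and a gene was compared where both together held at least 20 UMIs. A ratio of at least 2 in favour of the granzyme barcodes was reached by 4 of the 9 members. Of the 9695 genes compared, 7.35% did so. A ratio of 0.5 or less was reached by 2 of the 9, where 9.40% of all genes did. Since the members were chosen with earlier results of these data known, these counts do not test them against all genes. Cx3cr1 had 121 UMIs in 57 of the 108 granzyme barcodes and 24 UMIs in 14 of the 611 others, levels of 1.89 and 0.0602 per 10000 and a ratio of 31.3 (20.1 to 50.8). Ccr2 had 63 and 32 UMIs, with a ratio of 12.2 (7.88 to 19.4). Cxcr3 had 143 and 220 UMIs, levels of 2.23 and 0.552 and a ratio of 4.04 (3.25 to 5.01). Cxcr6 stood just past the limit at 2.01 (1.47 to 2.72), and was at 1.95 where a barcode needed at least 2 UMIs of the defining genes.

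Ccr7 and Ccr9 were on the other side. Ccr7 had 71 UMIs in granzyme and 2477 in other CD8-only barcodes, 1.11 and 6.21 per 10000, a ratio of 0.178 (0.139 to 0.226). Ccr9 had 9 and 187 UMIs and a ratio of 0.299 (0.135 to 0.580), with all 9 UMIs in 3 barcodes. S1pr1 differed little, at 1.75 and 2.24 and a ratio of 0.780 (0.635 to 0.950), and Cxcr4 was at 0.374 and 0.557, a ratio of 0.672 (0.422 to 1.03). Klf2 was higher with granzyme, at 14.9 against 9.94, a ratio of 1.5 (1.39 to 1.61). Thus low Ccr7 went with pooled S1pr1 and Klf2 levels within 1.5 times of those in the other CD8-only barcodes. As a mean over barcodes the 2 groups lay further apart. S1pr1 was then at 1.72 with and 2.74 without granzyme, and Klf2 at 16.8 and 9.89. The median ratio over the 9 members was 1.5 and over all genes compared 1.04.

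Because deeper barcodes show more genes, shares of barcodes with a UMI were also read after drawing each barcode down to 2000 UMIs. Median totals were close, 5332.5 with and 5609 without granzyme, and 105 of 108 and 582 of 611 barcodes were deep enough to draw. Cx3cr1 was then found in 30.5% (21.9% to 40.2%) of granzyme and 1.20% (0.485% to 2.46%) of other CD8-only barcodes, where the undrawn shares were 52.8% and 2.29%. Ccr7 was found in 11.4% and 60.0%, undrawn 20.4% and 81.5%, and Cxcr3 in 30.5% and 7.22%, undrawn 57.4% and 20.3%. As a background for the receptors, Cd79a barcodes outside the CD4-only and CD8-only groups had Cx3cr1 in 2.22%, Cxcr3 in 0 of 90 (exact upper bound 4.02%), Ccr2 in 1.11% and Cxcr6 in 1.11%, at a median of 3502.5 UMIs. Undrawn, the Cx3cr1 share of CD8-only barcodes without granzyme was 2.29%, against 2.22% in these Cd79a barcodes. Drawn to 2000 UMIs, the shares were 1.20% and 1.25%, so they are not told apart. Of the 14 CD8-only barcodes concerned, 1 held 7 of the 24 UMIs.

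Markers of another cell type moved with the granzyme call. The 4 NK cell markers Ncr1, Klrb1c, Klre1 and Eomes summed to 4.10 per 10000 in granzyme and 0.627 in other CD8-only barcodes, with none of the 4 at 0 in either. Eomes, which CD8 T cells also express, made up 164 of the 263 UMIs, and Ncr1 was found in 1 of the 108 granzyme barcodes. Klrb1c and Klre1 are not given singly, so whether NK cells were among these barcodes was not settled. The 6 T cell markers stood at 35.6 and 24.4 and a clonotype was found for 97 of the 108 granzyme barcodes. Among clonotyped barcodes alone, the count of members past the ratio remained 4 higher and 2 lower. The median ribosomal protein share was 18.9% with and 29.1% without granzyme. Without barcodes under 10%, ratios were 31.3 for Cx3cr1, 14.2 for Ccr2, 3.90 for Cxcr3, 0.171 for Ccr7 and 0.399 for Ccr9. That of Cxcr6 was then 1.81, which left 3 members past 2, and that of S1pr1 0.955, where it was 0.780 with all barcodes.

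**Figure D2:**
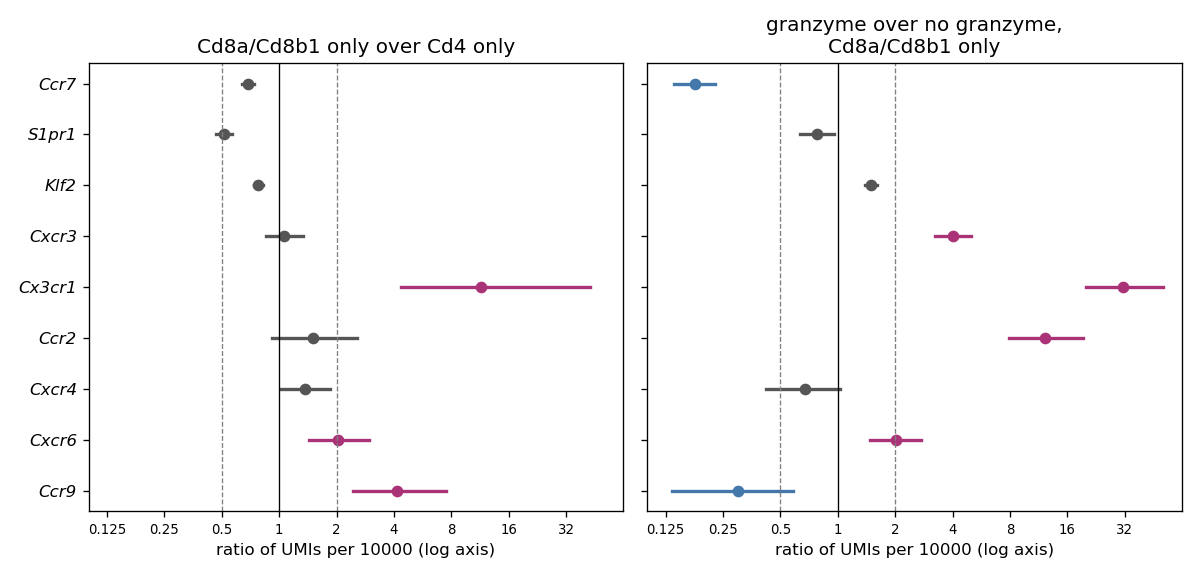
Ratios of UMIs per 10000 for the 9 genes, CD8-only over CD4-only barcodes on the left and granzyme over other CD8-only barcodes on the right, on a log axis with exact 95% intervals. Dashed lines mark 0.5 and 2, and colours mark ratios past them; Cx3cr1 is at 11.5 on the left and 31.3 on the right, and Ccr7 is at 0.686 and 0.178.

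The genome places 4 of the members on chromosome 9, among them 3 of the 4 that were at least 2 times higher with granzyme. In RefSeq on GRCm38.p6, Cx3cr1 lies at chr9:120048683-120068296, Ccr9 at chr9:123767211-123783457, Cxcr6 at chr9:123806477-123811754 and Ccr2 at chr9:124101918-124109140. Ccr9 and Cxcr6 are 23020 bases apart and differed in direction. The others are Ccr7 at chr11:99144199-99155077, S1pr1 at chr3:115710433-115715055, Klf2 at chr8:72319062-72321654, Cxcr3 at chrX:101731535-101734147 and Cxcr4 at chr1:128588199-128592299. To show where the letters searched for lie, of the 4 members at least 2 times higher with granzyme the 3 with a match are printed. These are the 250 bases before the start of Cxcr3 (chrX:101734148-101734397, minus strand), Cx3cr1 (chr9:120068297-120068546, minus strand) and Cxcr6 (chr9:123806227-123806476, plus strand), from the RefSeq promoter table, each from 5′ to 3′ on the gene's strand. Capitals mark matches to the core letters of Runx factors, TGTGGT or on the other strand ACCACA, and of T-box factors, TCACAC or on the other strand GTGTGA.
Cxcr3: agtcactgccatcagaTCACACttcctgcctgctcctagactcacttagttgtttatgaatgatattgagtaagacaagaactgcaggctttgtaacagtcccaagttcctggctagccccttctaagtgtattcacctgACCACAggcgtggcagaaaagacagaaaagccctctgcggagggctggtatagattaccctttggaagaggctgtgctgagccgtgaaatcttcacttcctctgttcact
Cx3cr1: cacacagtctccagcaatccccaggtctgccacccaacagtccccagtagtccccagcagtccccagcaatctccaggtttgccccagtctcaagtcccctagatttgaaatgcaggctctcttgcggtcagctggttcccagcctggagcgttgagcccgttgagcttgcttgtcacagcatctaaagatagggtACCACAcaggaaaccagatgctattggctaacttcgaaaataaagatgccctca
Cxcr6: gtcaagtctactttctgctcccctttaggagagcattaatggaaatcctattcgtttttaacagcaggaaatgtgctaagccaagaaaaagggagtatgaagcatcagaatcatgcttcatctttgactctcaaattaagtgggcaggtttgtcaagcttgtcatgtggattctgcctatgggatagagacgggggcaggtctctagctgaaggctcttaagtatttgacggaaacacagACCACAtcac
The table held 7 of the 9 members, and Ccr7 and S1pr1 were not among them. The Runx letters occurred in 3 of these 7 windows, those printed, where 14.0% of all 32851 windows of this length hold them. The T-box letters occurred in 1, that of Cxcr3, against 12.3% of all windows, and no match of one motif overlapped the other. The windows of Ccr2, Klf2, Cxcr4 and Ccr9 held neither set of letters. The Ccr2 window (chr9:124101933-124102182, plus strand) lies inside the gene span given above. The bases before that start were therefore not searched for Ccr2. A match describes the letters and no binding was measured.

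The number of granzyme genes found in a barcode was then used to grade the CD8-only barcodes, with 611 barcodes holding none, 59 holding 1, 38 holding 2 and 11 holding all 3. Ccr7 went from 6.21 per 10000 with none to 1.69 (1.29 to 2.18) with 1, 0.368 (0.159 to 0.725) with 2 and 0.535 (0.146 to 1.37) with 3. Cx3cr1 went the opposite way, from 0.0602 to 1.17 (0.843 to 1.59), 2.21 (1.63 to 2.93) and 4.28 (2.93 to 6.04). For Cxcr3 the step lay between none and 1, at 0.552 and 2.15 (1.69 to 2.69), and the levels with 2 and 3 genes, 2.49 (1.87 to 3.24) and 1.87 (1.02 to 3.14), overlapped with it. Klf2 stood at 9.94, 13.6, 16.2 and 16.7. Cx3cr1 was thus graded with the number of granzyme genes, whereas Cxcr3 was not beyond its counting error.

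**Figure D3:**
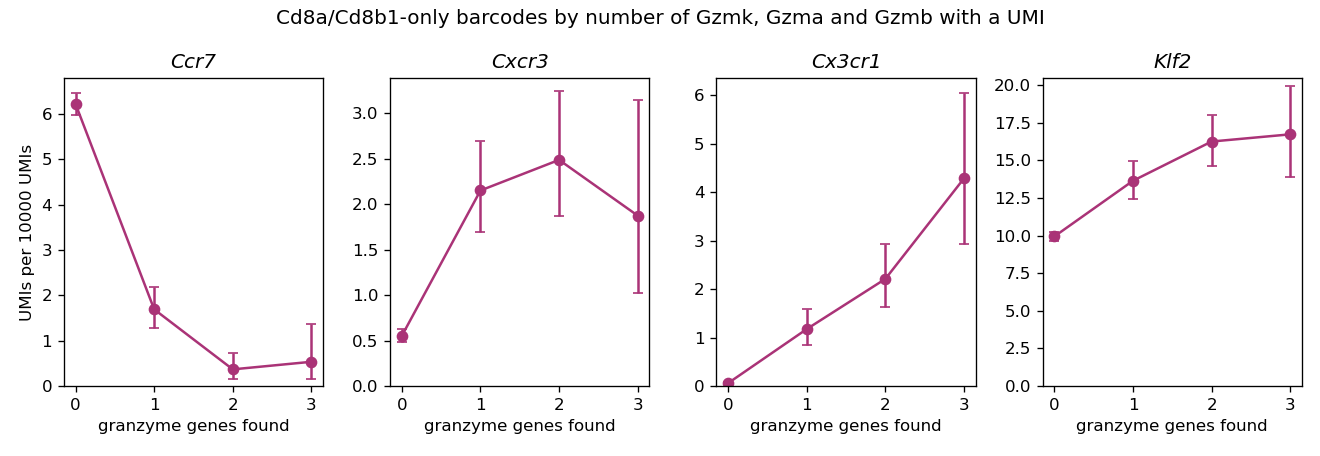
Levels of Ccr7, Cxcr3, Cx3cr1 and Klf2 in CD8-only barcodes by how many of Gzmk, Gzma and Gzmb had a UMI, as UMIs per 10000 UMIs with exact 95% Poisson intervals. Cx3cr1 runs from 0.0602 to 4.28 across the steps and Cxcr3 is level from 1 gene on.

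The receptors were also read by which granzyme was present. Of all granzyme barcodes, 53 held Gzmk alone, 49 held Gzma or Gzmb without Gzmk, and 44 held both kinds. These groups were not limited to CD8-only barcodes. A Cd8b1 UMI was found in 71.7% of the barcodes with Gzmk alone and 57.1% of those with Gzma or Gzmb alone. The kind of granzyme is thus mixed with the kind of cell. Between Gzmk alone and Gzma or Gzmb alone, Cxcr3 was higher with Gzmk, at 2.87 against 1.38 per 10000 and a ratio of 2.08 (1.41 to 3.09), and Ccr2 was lower, at 0.782 against 1.86 and a ratio of 0.420 (0.242 to 0.703). These were 1 member past the limit in each direction of the 8 compared, where 3.58% of 4699 genes were higher and 7.24% lower. Cx3cr1 was at 0.856 and 1.38, a ratio of 0.621 (0.357 to 1.05), and at 2.65 where both kinds were found. Ccr2 depended on 3 barcodes here, which held 30 of its 58 UMIs in the Gzma or Gzmb group and all held Foxp3. Without the Foxp3 barcodes, a choice made after seeing the data, Ccr2 was at 0.765 and 0.989, a ratio of 0.774 (0.408 to 1.45), and the Cxcr3 ratio was 1.94 (1.29 to 2.95), so that no member was past the limit. A clonotype was found for 46 of the 53 and 32 of the 49 barcodes, and among these the Cxcr3 ratio was 1.66 and that of Cx3cr1 0.429. The Cxcr3 ratio was also under 2 without low ribosomal barcodes (1.96) and without predicted doublets (1.99).

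Within the 108 CD8-only granzyme barcodes, Ccr7 and Cx3cr1 were rarely found together. Cx3cr1 alone was found in 55 barcodes, Ccr7 alone in 20, both in 2 and neither in 31, and after drawing to 2000 UMIs the numbers were 32, 12, 0 and 61 of 105. Barcodes with Cx3cr1 (57) held 5 Ccr7 UMIs and those without (51) held 66, a ratio of levels of 0.0857 (0.0269 to 0.210). S1pr5, another sphingosine-1-phosphate receptor, was at 2.13 and 0.264, a ratio of 8.05 (3.98 to 18.4). Zeb2, a transcription factor of terminal effector cells, was at 4.39 and 0.294. S1pr1 and Ccr2 were similar on both sides, with ratios of 0.789 (0.529 to 1.17) and 1.03 (0.606 to 1.74).

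Cxcr3 was more often found beside Ccr7 in the same barcodes, in 16 against the 2 of Cx3cr1. The 22 barcodes with Ccr7 were deeper, however, with a median of 8405 against 4770.5 UMIs in the 86 without. By level, Cxcr3 was not higher beside Ccr7, at 1.72 (1.18 to 2.41) per 10000 with Ccr7 and 2.45 (2.01 to 2.95) without. Cxcr3 was found with Cx3cr1 in 24 of the 108 and alone in 38. Cx3cr1 was found without Cxcr3 in 33 and neither in 13. Barcodes with Cxcr3 held less Cx3cr1 than those without, 1.27 against 2.96 per 10000 with a ratio of 0.429 (0.294 to 0.625), and less S1pr5, 0.294 against 2.62. In CD8-only barcodes without granzyme, 107 of the 124 with Cxcr3 also held Ccr7, at a level of 4.70 against 6.84 in those without Cxcr3 (ratio 0.687, 0.624 to 0.756). Those 124 barcodes were deeper, with a median of 9868 against 4780 UMIs, so that they show more genes of any kind. After drawing to 2000 UMIs, 19 barcodes without granzyme held both, 23 Cxcr3 alone and 330 Ccr7 alone. Ccr9 was seldom found with Cxcr3 there, with 5 barcodes holding both among 124 with Cxcr3 and 104 with Ccr9, and a Ccr9 level of 0.0686 against 0.635.

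**Figure D4:**
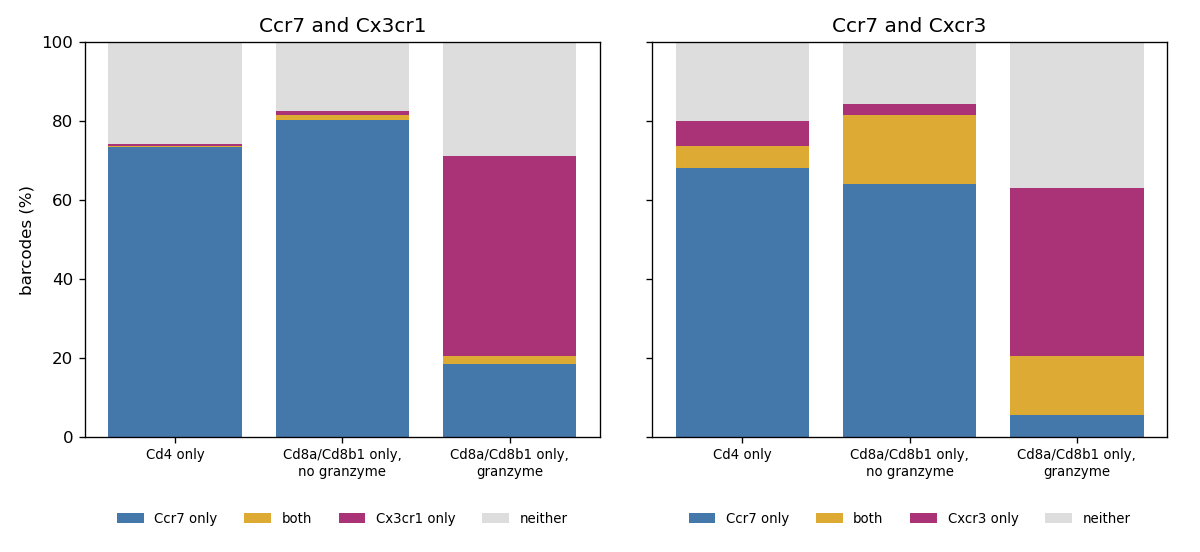
Percent of barcodes that hold Ccr7 alone, both genes, the other gene alone or neither, for Cx3cr1 on the left and Cxcr3 on the right, at full depth. In CD8-only granzyme barcodes 2 of 108 hold Ccr7 with Cx3cr1 and 16 hold Ccr7 with Cxcr3.

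Counting Cxcr3, Cx3cr1, Ccr2 and Cxcr6 together, at least 1 of the 4 receptors was found in 100 of the 108 CD8-only granzyme barcodes, of which 37 held 2, 14 held 3 and 4 held all 4. Without granzyme, 229 of 611 CD8-only barcodes held at least 1, and 191 of these also held Ccr7. Of the 382 that held none of the 4, 307 held Ccr7. In CD4-only barcodes the number with at least 1 was 58 of 369, and in Cd79a barcodes 8 of 106. These numbers were not drawn to equal depth. Median totals were 3390 UMIs in CD4-only and 3657 in Cd79a barcodes, against 5332.5 and 5609 in CD8-only barcodes with and without granzyme. Part of the difference can thus come from depth.

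The contig table gives a readout that the groups did not use: whether a clonotype was seen in more than 1 barcode. CD8-only barcodes of such expanded clonotypes (57 barcodes in 19 clonotypes) were set against those of clonotypes seen once (467). Cx3cr1 was at 1.49 against 0.196 per 10000, a ratio of 7.60 (5.11 to 11.2), Ccr2 at 1.06 against 0.141 (7.53, 4.68 to 11.9) and Cxcr3 at 2.05 against 0.725 (2.83, 2.11 to 3.74). Ccr7 was at 1.06 against 6.15 (0.172, 0.117 to 0.244) and S1pr1 at 1.79 against 1.94 (0.919, 0.683 to 1.21). Expansion and granzyme overlapped, since 44 of the 57 expanded barcodes held a granzyme UMI. The other 13 had no Cx3cr1 and no Ccr2 UMI in 72819, and their Ccr7 level was 3.30 (2.11 to 4.90). The exact upper bound of these counts of 0 was 0.507 per 10000 for each gene. It lies below the 1.96 for Cx3cr1 and 1.39 for Ccr2 of the 44 expanded barcodes with granzyme. It lies above the 0.0523 and 0.0861 of single CD8-only barcodes without granzyme, from which the 13 are not told apart.

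Within the CD8-only granzyme barcodes, expanded (44) and single (53) clonotypes were also compared. Ccr7 was at 0.349 and 1.69, a ratio of 0.206 (0.0854 to 0.432), and Ccr2 at 1.39 and 0.617, a ratio of 2.26 (1.28 to 4.05). Klf2 was higher at 1.29 (1.13 to 1.47), and Ccr9 had 0 UMIs against 9. Of the 32 Ccr2 UMIs in expanded barcodes, 13 were in 1 clonotype of 8 barcodes, and 1 barcode held 8. The Ccr2 ratio of all expanded over single CD8-only barcodes given above rests on the same 32 UMIs. Barcodes of 1 clonotype are related, which the intervals do not cover. The intervals of the ratios for Cx3cr1, 1.35 (0.891 to 2.05), Cxcr3, 1.18 (0.822 to 1.69), Cxcr6, 1.31 (0.742 to 2.29) and S1pr1, 1.0 (0.657 to 1.5) all include 1, as does that of Cxcr4, 0.711 (0.247 to 1.83). Among single clonotypes, granzyme barcodes still had a Cx3cr1 ratio of 27.7 (15.8 to 51.0) over the 414 without granzyme. Clonotypes were not of 1 kind: Cx3cr1 was found in 12 of the 19, Cxcr3 in 11 and both in 8. The largest, with 9 CD8-only barcodes, held 10 Cx3cr1 and 13 Cxcr3 UMIs, and the next, with 8, held 3 and 15, with Cxcr3 in 7 of its 8 barcodes. In CD4-only barcodes 12 belonged to expanded clonotypes. They had 24 Cxcr3 UMIs in 9 barcodes, 4.05 against 0.733 per 10000 in single ones (5.53, 3.35 to 8.80), no Cx3cr1 UMI and a Ccr7 level of 1.01 against 8.94.

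CD8-only and CD4-only barcodes as a whole differed in 3 members by a ratio of at least 2, all higher in CD8-only barcodes, where 4.33% of 10277 genes were higher and 6.95% lower. Cx3cr1 had 145 against 4 UMIs and a ratio of 11.5 (4.38 to 42.6), Ccr9 196 against 15 and a ratio of 4.13 (2.44 to 7.52), and Cxcr6 237 against 37 and a ratio of 2.03 (1.43 to 2.95). S1pr1 was lower, 2.17 against 4.23, at a ratio of 0.513 (0.464 to 0.568), just inside the limit. Cxcr3 did not differ beyond counting error, with a ratio of 1.06 (0.855 to 1.33). Low ribosomal shares were unequal, in 142 of 369 CD4-only and 208 of 719 CD8-only barcodes. With those left out, the S1pr1 ratio was 0.552 (0.485 to 0.629), that of Cxcr6 1.58 (1.11 to 2.31), no longer past the limit, and that of Ccr9 3.63 (1.91 to 7.74). The 11 CD4-only granzyme barcodes had Cxcr3 at 3.22 and Cx3cr1 at 0.247 per 10000, against 2.23 and 1.89 in CD8-only granzyme barcodes. The ratio was 1.44 (0.911 to 2.20) for Cxcr3 and 0.131 (0.0157 to 0.484) for Cx3cr1, the latter from 2 UMIs in 1 barcode.

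Foxp3, the lineage factor of regulatory T cells, was found in only 15 CD4-only barcodes, and their counts of the rarer receptors were small. Against the 354 without Foxp3, 1 of the 7 members compared was past the ratio in each direction, where 7.61% of 7789 genes were higher and 15.9% lower. These were Ccr2, with 4 against 16 UMIs and a ratio of 4.43 (1.08 to 13.7), and Cxcr6, with 1 against 36 and a ratio of 0.492 (0.0121 to 2.92). Ccr7 was at 4.73 against 8.21, a ratio of 0.577 (0.404 to 0.8), S1pr1 at 2.82 against 4.31 (0.653, 0.406 to 0.998) and Klf2 at 13.9 against 13.6 (1.02, 0.836 to 1.24). Ccr9, with 5 against 10 UMIs, was under the minimum for comparison.

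The whole Foxp3 group of 40 barcodes held 17.8 UMIs of 5 regulatory T cell markers per 10000, against 3.26 in CD4-only barcodes. Foxp3, which defines the group, is among the 5. The sum is thus raised in part by the choice of barcodes and does not test the label. The group was not uniform. The 8 Foxp3 barcodes with a granzyme UMI held 34 of the 41 Ccr2 UMIs, in 7 barcodes, and no Ccr7 UMI, while the 32 without held 7 Ccr2 and 63 Ccr7 UMIs. Ccr2 was at 5.13 and 0.544 per 10000, a ratio of 9.42 (4.11 to 25.2). Klrg1, a receptor of differentiated effector lymphocytes, had 50 and 2 UMIs, and all 14 Ccr9 UMIs were in barcodes without granzyme. One Foxp3 barcode held 539 UMIs of neutrophil markers, and without it, a choice made after seeing the data, the Ccr2 level was 2.13.

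Among Cd79a barcodes, the 90 outside the T cell groups were set against 1072 CD4-only and CD8-only barcodes without Cd79a. Of the 9 members 1 was past the ratio upward and 5 downward, where 11.8% of 10497 genes were higher and 12.2% lower. Cxcr4 was higher, at 1.40 against 0.489 and a ratio of 2.87 (2.08 to 3.90). Cxcr3 had 0 UMIs against 468, a ratio of at most 0.110 taking 3 counts in the group as the floor. Cxcr6 had 1 against 268 and Cx3cr1 2 against 149. Ccr2 had 1 against 115 and Ccr9 4 against 210. Ccr7 was alike at 5.62 and 6.13, a ratio of 0.916 (0.790 to 1.06), Klf2 was at 17.1 and 11.4 (1.51, 1.38 to 1.64) and S1pr1 at 1.78 and 2.68 (0.663, 0.506 to 0.854). Of 16 other chemokine receptors 5 were compared, with 2 higher and 1 lower. Cxcr5, which guides cells to B cell follicles, had a ratio of 10.4 (8.07 to 13.4) and Ccr6 of 53.7 (23.5 to 138). Of 10 sphingosine-1-phosphate pathway genes 8 were compared, with Spns2, an exporter of sphingosine-1-phosphate, higher at 18 UMIs against 3 and S1pr5 lower at 1 against 123.

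The related genes of the same pathways were described with lists chosen by function, with earlier results of these data known. Of 10 adhesion genes, 5 were past 2 in CD8-only granzyme barcodes and 2 below 0.5, Itgae among them, with a median ratio of 1.95 against 1.04 over all genes. Of all genes compared, 7.35% were higher and 9.40% lower. Counts of the lists, here and below, do not test them against all genes. The integrin subunits Itga4, Itgb1, Itgb2 and Itgal were higher, at ratios of 3.37 (3.10 to 3.67), 4.28 (3.72 to 4.91), 3.30 (2.91 to 3.74) and 2.30 (1.92 to 2.75), as was Itga1 at 8.13 (3.72 to 18.2) from 17 UMIs. Itgae, whose integrin binds E-cadherin, was lower at 0.348 (0.188 to 0.595). Selplg, Itgb7 and Cd44 were inside the limits at 1.60, 1.10 and 1.38. Between Gzmk alone and Gzma or Gzmb alone, Itga4 was at 2.13 (1.81 to 2.52) and Itgae at 0.0352 (0.000864 to 0.210), with 1 against 33 UMIs. The Gzma or Gzmb group held 6 Foxp3 barcodes, and these ratios are not given without them.

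In the sphingosine-1-phosphate pathway, 6 of 10 genes could be compared between granzyme and other CD8-only barcodes, with 2 higher and 1 lower. In this comparison 7.35% of all genes were higher and 9.40% lower. S1pr5 was at a ratio of 12.3 (8.15 to 18.7) and Mfsd2b, a transporter, at 2.07 (0.589 to 6.0). Cd69, whose protein binds S1pr1 and holds cells in tissue, was lower at 0.493 (0.376 to 0.636). S1pr4 was at 1.89 (1.56 to 2.28) and Sgpl1, the lyase, at 0.813 (0.430 to 1.43). S1pr1, at 0.780, and S1pr5 thus stood apart in the same barcodes. Of 8 Klf and Foxo factors 7 were compared and 4 were below 0.5: Foxp1 at 0.406, Foxo1 at 0.463, Klf7 at 0.425 and Foxo3 at 0.367. Klf3, Klf6 and Klf13 were at 1.04, 1.34 and 0.740, and the list's median was 0.463. Low ribosomal barcodes were unequal here, 10 of the 108 with and 198 of the 611 without granzyme. For low over other ribosomal share among T cell barcodes, this list's median ratio was 2.71, against 1.53 over all genes. Of its 8 factors, 4 were then higher and 1 lower, where 37.2% of all genes were higher and 13.2% lower. The granzyme ratios of these factors are not given without low ribosomal barcodes, so the share of each was not separated.

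Between CD8-only and CD4-only barcodes, S1pr5 was higher at 2.68 (1.5 to 5.18), as was Itgae at 6.96 (3.92 to 13.6), and Itgb1 was lower at 0.403 (0.364 to 0.446). Ccr4 had 20 UMIs in CD4-only and 0 in CD8-only barcodes. Cxcr2 and Ccr1 were found mostly outside the T cell groups, with 130 of 162 and 51 of 61 UMIs in barcodes without a T or B cell gene. Of 12 genes that act below the receptors, 1 was past the limit with granzyme, the regulator Rgs1 at 5.33 (2.96 to 9.53). The list's median ratio was 1.67, against 1.04 over all genes, of which 7.35% were higher and 9.40% lower. Rac2, Gnas and Gnai2 were at 1.85, 1.71 and 1.73, Coro1a at 1.39 and Dock2 at 0.843. Few UMIs of the members' ligands were found. Of the 10 ligand genes 8 had a symbol used once in the matrix. Ccl25 had 151 UMIs over the 1600 barcodes, Cxcl10 had 8 and Cxcl16 1, and the other 5 had 0.

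Genes with levels most like a member were ranked by Pearson's r across 738 CD4-only and CD8-only barcodes of at least 10% ribosomal share, on the natural log of 1 plus UMIs per 10000, over 8381 genes. The barcodes share 1 library and differ in depth, so r is a description. Ccr7 was most like Satb1 (0.47), and Lef1 (0.38) was also among the 3 highest. Cx3cr1 was most like Zeb2 (0.69), Gzmb (0.60) and S1pr5 (0.57), and Cxcr3 most like S100a6 (0.58), Myo1f (0.47) and Ahnak (0.47). For S1pr1 and Klf2 the highest values, 0.23 with Lef1 and 0.26 with H2-D1, were weak. Between members, r was -0.40 for Ccr7 with Cx3cr1, -0.36 for Ccr7 with Cxcr3 and 0.09 for S1pr1 with Klf2.

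Levels also differed between barcodes of low and other ribosomal share, which was looked at because this share moved with the groups. Among CD4-only and CD8-only barcodes, 350 had a share under 10% and 738 a higher one. Of the 9 members 2 were at least 2 times higher and 2 at most 0.5 times as high in low-share barcodes, where 37.2% of 10277 genes were higher and 13.2% lower, so the members did so no more often than all genes upward. S1pr1 was at 5.0 against 2.13, a ratio of 2.34 (2.11 to 2.60), which held within CD4-only barcodes at 2.06 (1.75 to 2.42) and within CD8-only barcodes at 2.23 (1.94 to 2.56). Klf2 went the other way at 0.601 (0.558 to 0.646), with 0.536 and 0.603 within the groups. Cxcr3 was at 0.382 (0.267 to 0.533) and Cxcr6 at 0.418 (0.263 to 0.637). Ccr9 was at 2.12 (1.56 to 2.84), from CD8-only barcodes at 2.54 (1.85 to 3.45). Median totals were 3056.5 and 6031.5 UMIs. A clonotype was found for 105 of the 350 and 685 of the 738 barcodes. What sets the ribosomal share was not tested.

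**Figure D5:**
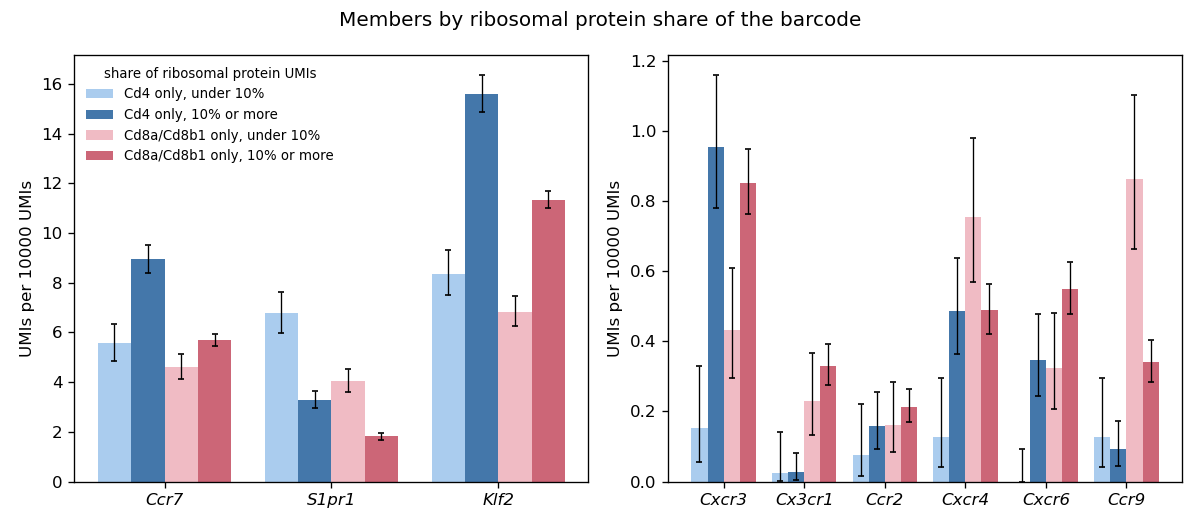
Levels of the 9 genes in CD4-only and CD8-only barcodes with under 10% and with 10% or more of ribosomal protein UMIs, as UMIs per 10000 UMIs with exact 95% Poisson intervals. S1pr1 is higher and Klf2 lower in low-share barcodes of both groups, with S1pr1 ratios of 2.06 and 2.23. The median ratio over all genes, with both groups together, is 1.53.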

How the data were processed

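Blood T lymphocytes of 1 vehicle-treated mouse were profiled by droplet RNA sequencing with T cell receptor contigs. The deposited matrix holds UMI counts per gene and barcode, and per the file headers it was made by the authors with Cell Ranger 4. The submitters' processing notes name GRCm38. The deposited contig table was used for clonotypes only. No column of another sample was present. Barcodes with at least 1331 UMIs were kept (the 99th percentile of the 3000 with most UMIs, divided by 10), 7974264 of 12855001 UMIs. Counts were pooled per group and given per 10000 UMIs. With 1 library no test across samples could be made, and barcodes of 1 mouse are not replicates. Genes with at least 20 UMIs in both groups together were compared, and a ratio of at least 2 or at most 0.5 counted as past. Shares were also read after thinning to 2000 UMIs (seed 7). Scrublet, run in scanpy, predicted 12 doublets (0.75%), which were kept. Of the 23 barcodes with Cd79a and a Cd3d, Cd3e or Cd3g UMI, it predicted 1, so mixed barcodes largely remain without predicted doublets. The scripts were tested on simulated data. The members and lists were chosen with earlier results of these data known. Genes named were the members, the genes that define groups, of each list the 4 with most UMIs and those past the ratio, and the 3 most like each of 5 members. List genes past the ratio were given by example, and some genes that the rule names are not reported here. Klrg1 was named after its values were seen. Python 3.11.15, numpy 2.4.6, scipy 1.17.1, pandas 2.3.3, scanpy 1.11.5 and matplotlib 3.10.9 were used. Alternatives changed the UMI limit, the UMIs that define a group, depth, ribosomal share, clonotype, the way levels were formed and doublets. The minimum count and the ratio were changed for the shares of all genes only.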

Additional observations from a re-analysis of the deposited data

Results flagged for a closer look

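In the 107 barcodes without a T or B cell gene, which enter none of the comparisons, 6 of the 9 members were above the level that a count of 0 would allow, 0.0846 per 10000 UMIs (3 counts in 354641 UMIs). Klf2 was at 5.89 (5.12 to 6.75), Ccr2 at 1.33 (0.974 to 1.76) and S1pr1 at 1.24 (0.901 to 1.67). Cxcr4 was at 1.02 (0.711 to 1.41), Ccr7 at 0.508 (0.301 to 0.802) and Cx3cr1 at 0.367 (0.195 to 0.627). By the markers with most UMIs in a barcode, 6 barcodes led by monocyte markers held 32 of the 47 Ccr2 UMIs, 25 of them in 1 barcode, and 12 of the 13 Cx3cr1 UMIs. The 17 led by neutrophil markers held 22 of the 36 Cxcr4 UMIs. The 33 with under 3 UMIs of the markers of each other lineage held 39 of the 44 S1pr1 and 17 of the 18 Ccr7 UMIs.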

How the results depend on the processing

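No paired analysis was possible because 1 sample was analysed. The counts of members past the ratio in the comparisons of granzyme and of Cd79a barcodes stayed within 1.5 times under each alternative run. Their members could change. After thinning, S1pr1 was past the ratio for Cd79a barcodes at 0.483 and Ccr2, with 0 against 36 UMIs, no longer was. The other minimum count and ratio were run for the shares of all genes and not for the members. Between CD8-only and CD4-only barcodes, the count lower was 1 in place of 0 among clonotyped barcodes, by S1pr1 at 0.490. Cxcr6 was no longer past 2 there with a limit of 2500 UMIs (1.77), without low ribosomal barcodes (1.58), among clonotyped barcodes (1.67) and without barcodes with Cd79a and Cd3 (1.99). With Foxp3, the count higher was 0 in place of 1 with a limit of 2500 UMIs, with at least 2 UMIs of the defining genes, after thinning, without low ribosomal barcodes and among clonotyped barcodes. Ccr2 fell under the minimum of 20 UMIs in each of these, at ratios of 5.16, 8.78, 2.75, 4.0 and 4.24 against 4.43. The Foxp3 side held 4, 1, 1, 4 and 4 Ccr2 UMIs in these settings. With at least 2 UMIs of the defining genes it was 1 barcode. Such ratios are too loose to show agreement. The count lower was 0 after thinning and 2 as a mean over barcodes. Cxcr6 changed direction after thinning, to 2.06 from 1 against 12 UMIs, which is under the minimum. With Gzmk alone, the count higher was 2 with at least 2 UMIs and after thinning, with Ccr7 added at 2.22 and 2.12. It was 0 by Cxcr3 without low ribosomal barcodes (1.96), among clonotyped barcodes (1.66), without predicted doublets (1.99) and without Foxp3 barcodes (1.94). The count lower was 2 with at least 2 UMIs and among clonotyped barcodes, 3 as a mean and 0 without Foxp3 barcodes. By ribosomal share, the count higher was 1 after thinning and as a mean, by Ccr9 at 1.62 and 1.91. Causes not shown by these values were not tested. Of 466 values of single members under the alternatives planned, 421 stayed inside the main interval, 44 moved outside it and 1 reversed. Of 24 shares of all genes past the ratio, 14 moved by over 1.5 times, all with a ratio of at least 1.5 or a minimum of 50 UMIs. Depth and the single library limit each comparison.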
